A study of Homo sapiens with 6 samples.

Results

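Of 91874 open regions on chromosomes 1 to 22, 3706 lay at the ends of long noncoding RNA (lncRNA) genes and are described here. Summits from 6 peak lists that lay under 500 bp apart were chained into a region, and a region was taken when its midpoint fell within 1 kb of an annotated end of a RefSeq lncRNA gene and over 1 kb from every end of a protein-coding gene. The 3706 regions were named by 3275 lncRNA genes, 2872 of which named 1 region, 375 named 2 and 28 named 3. For comparison, 13553 regions lay within 1 kb of a protein-coding gene end and 74615 lay away from both kinds of end. Accessibility had been measured in GM12878, a lymphoblastoid line made from B cells immortalised with Epstein-Barr virus, grown to a low passage number. The groups were cells sorted for high H3K27ac staining (H3K27ac high, 2 libraries), cells sorted for low staining (H3K27ac low, 2 libraries) and live, unsorted cells (Live control, 2 libraries). Sorted cells had been fixed with paraformaldehyde and stained with an antibody that the staining protocol writes as H3K37ac and every other label as H3K27ac, and their crosslinks were reversed overnight, whereas live control DNA was purified straight after transposition. Each library came from 50000 cells transposed for 30 min. The labels describe the sorted replicates as portions of counted, sorted cells and name no separate cultures. Replicate spread, and the p-values built on it, may then be technical only, and every library is from 1 cell line.

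A lncRNA gene is transcribed by RNA polymerase II like a protein-coding gene but its RNA is not translated into a protein. Some of these RNAs act in the nucleus or cytoplasm, some serve mainly as precursors from whose introns or exons small nucleolar RNAs (snoRNAs) or microRNAs are cut, and for many no function is known. Tn5 transposase inserts adapters where DNA is not covered by nucleosomes, as at active promoters and enhancers, and H3K27ac is a histone mark carried by both.

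Promoters of 5 lncRNA genes are printed to show the kinds of start described further on. SNHG5 and MIR181A1HG were open in all 6 libraries, LINC02321 was among the best regions of low and not of high libraries, CFAP58-DT among those of sorted and not of live libraries, and LINC00173 among those of live and not of sorted libraries. Each is the RefSeq window of 250 bases before to 50 after the annotated start on GRCh38.p14, written 5′ to 3′ on the gene's strand. The windows are chr6:85678684-85678983, minus strand, for SNHG5; chr1:198937380-198937679, minus strand, for MIR181A1HG; chr14:90828125-90828424, minus strand, for LINC02321; chr10:104353526-104353825, minus strand, for CFAP58-DT; and chr12:116533172-116533471, plus strand, for LINC00173. Capitals mark matches to the motifs searched, which are spelled out below.
SNHG5: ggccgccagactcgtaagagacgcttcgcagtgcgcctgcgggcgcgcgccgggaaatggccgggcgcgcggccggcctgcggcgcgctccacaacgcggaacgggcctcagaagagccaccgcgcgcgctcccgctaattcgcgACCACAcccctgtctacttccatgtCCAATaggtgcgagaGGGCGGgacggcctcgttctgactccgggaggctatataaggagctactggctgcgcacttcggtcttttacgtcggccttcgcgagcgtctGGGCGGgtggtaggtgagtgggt
MIR181A1HG: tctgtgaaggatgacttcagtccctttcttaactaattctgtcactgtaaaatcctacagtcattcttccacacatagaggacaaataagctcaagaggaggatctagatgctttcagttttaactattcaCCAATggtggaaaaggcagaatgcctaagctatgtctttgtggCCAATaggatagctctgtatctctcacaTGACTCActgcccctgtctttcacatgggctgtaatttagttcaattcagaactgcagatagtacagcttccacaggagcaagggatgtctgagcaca
LINC02321: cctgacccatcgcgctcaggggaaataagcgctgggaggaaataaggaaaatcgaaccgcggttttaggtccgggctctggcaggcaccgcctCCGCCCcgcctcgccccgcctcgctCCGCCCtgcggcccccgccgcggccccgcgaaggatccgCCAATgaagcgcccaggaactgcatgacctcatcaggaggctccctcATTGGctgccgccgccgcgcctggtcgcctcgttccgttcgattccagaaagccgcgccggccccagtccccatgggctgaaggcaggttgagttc
CFAP58-DT: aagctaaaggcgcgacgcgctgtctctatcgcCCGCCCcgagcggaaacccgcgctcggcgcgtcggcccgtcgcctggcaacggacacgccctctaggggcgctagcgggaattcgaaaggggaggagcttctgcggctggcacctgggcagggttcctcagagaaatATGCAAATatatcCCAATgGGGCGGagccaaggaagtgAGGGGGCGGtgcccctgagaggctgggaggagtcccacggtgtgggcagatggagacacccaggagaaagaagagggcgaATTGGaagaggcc
LINC00173: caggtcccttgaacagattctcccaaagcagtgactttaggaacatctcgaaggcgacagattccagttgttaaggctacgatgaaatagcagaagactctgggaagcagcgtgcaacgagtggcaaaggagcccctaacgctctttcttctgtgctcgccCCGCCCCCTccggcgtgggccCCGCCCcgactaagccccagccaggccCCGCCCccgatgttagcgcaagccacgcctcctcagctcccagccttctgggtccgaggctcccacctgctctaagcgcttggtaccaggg

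The SNHG5 window had 67.7% G and C and an observed over expected CpG ratio of 1.20, and the 6 libraries placed their summits between -101 and -69 bp, the start being 0. MIR181A1HG differed in kind: its window had 42.3% G and C and no CpG at all, and its summits lay between -106 and -37 bp. LINC02321, CFAP58-DT and LINC00173 had CpG ratios of 0.97, 0.86 and 0.66.

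MicroRNAs are printed because several of the steadily open starts belong to their host genes. Of 30 microRNA host genes with a region at an end, 28 held a mature RefSeq microRNA (74 in all), and the 9 host genes open in all 6 libraries held 33. Guide strands of 5 of these hosts follow, with the seed, bases 2 to 8, in capitals. MIR17HG carries miR-17, miR-20a, miR-19a, miR-19b and miR-92a, MIR181A1HG carries miR-181a and miR-181b, MIRLET7A1HG carries let-7a, let-7f and let-7d, MIRLET7IHG carries let-7i, and MIR3142HG carries miR-146a. One seed is common to miR-17 and miR-20a, another to miR-19a and miR-19b, another to miR-181a and miR-181b, and another to the let-7 microRNAs of both let-7 hosts. Those of miR-92a and miR-146a were carried by no other microRNA of the 28 hosts.
hsa-miR-17-5p: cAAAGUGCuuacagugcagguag
hsa-miR-20a-5p: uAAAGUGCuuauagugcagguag
hsa-miR-19a-3p: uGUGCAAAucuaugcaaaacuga
hsa-miR-19b-3p: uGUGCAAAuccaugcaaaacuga
hsa-miR-92a-3p: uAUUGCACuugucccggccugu
hsa-miR-181a-5p: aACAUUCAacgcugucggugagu
hsa-miR-181b-5p: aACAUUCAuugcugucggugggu
hsa-let-7a-5p: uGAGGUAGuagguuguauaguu
hsa-let-7f-5p: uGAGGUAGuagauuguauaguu
hsa-let-7d-5p: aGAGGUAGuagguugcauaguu
hsa-let-7i-5p: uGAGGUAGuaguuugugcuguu
hsa-miR-146a-5p: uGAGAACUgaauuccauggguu

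The deposited lists differed in length, with 24326 and 44046 regions for high, 39714 and 49111 for low and 66381 and 68626 for live. Read depth is unknown. Equal lists were therefore compared: the regions of each library were ranked by the authors' score, rank 1 being the highest, and the best 24326 of each were kept, which is the whole list of high replicate 1. As a check of the cell type, gene ends of 4 to 5 of 7 B cell markers were open per library, against 1 to 3 of 5 T cell markers and 0 of 5 myeloid and 0 of 4 erythroid markers. Of the 7 B cell markers, 3 were open in at most 1 library, among them BLK, a B cell kinase gene, which was open at no end in any. The count of 3 T cell markers was that of high replicate 1 alone, and the other 5 libraries had 1.

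The full lists held 1157 and 2026 of the 3706 lncRNA-end regions in high libraries, 1827 and 2197 in low and 2832 and 2958 in live. Those counts follow the lengths of the lists. Among the best 24326 regions the counts were close to one another, 1157 and 1184 in high libraries, 1192 and 1208 in low libraries and 1238 and 1225 in live libraries. As a share of the best regions, lncRNA-end regions made up 4.81% ± 0.08 in high libraries, 4.93% ± 0.05 in low libraries and 5.06% ± 0.04 in live libraries (SD, n = 2 each). High minus low came to -0.12 percentage points, high minus live to -0.25 and low minus live to -0.13. In each of these 3 comparisons the libraries did not overlap, and an exact two-sided permutation test gave p = 0.333, the smallest that 2 libraries against 2 allow. The 4 sorted libraries averaged 4.87% ± 0.09 (SD, n = 4), 0.19 points below the 2 live libraries, with p = 0.0667 in the exact permutation test, again the smallest possible. The 95% Wilson score intervals of single libraries overlapped throughout, from 4.50% to 5.03% in high replicate 1 up to 4.82% to 5.37% in live replicate 1. They cover counting error only. In the full lists all 4 differences had the opposite sign: high minus low was 0.14 points, high minus live 0.39, low minus live 0.25 and sorted minus live 0.32. No direction between the groups is drawn from these shares.

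**Figure D1:**
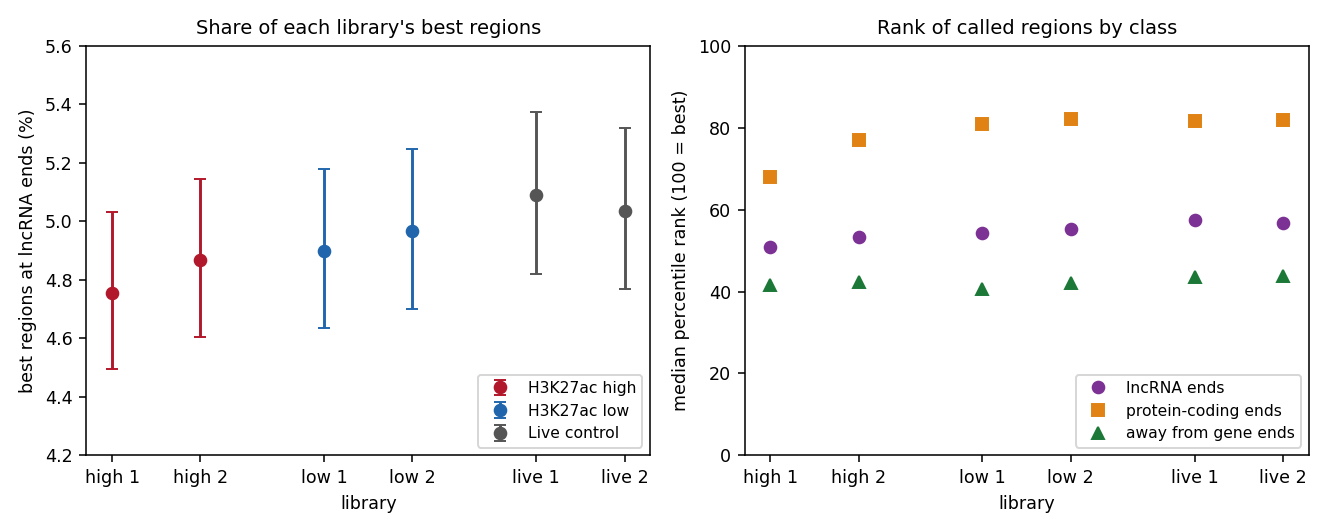
Left, the share of each library's best 24326 regions that lay at lncRNA ends, in percent, with 95% Wilson score intervals, for H3K27ac high, H3K27ac low and Live control libraries (the axis does not start at 0). The shares run between 4.76% and 5.09% and their intervals overlap. Right, the median percentile rank (100 = best) of all called regions of each class in each library: lncRNA ends lie between protein-coding ends and regions away from gene ends in all 6 libraries.

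Regions at lncRNA ends ranked below those at protein-coding ends and above the rest. On a scale of percentile ranks within each full list (100 = best), the median lncRNA-end region stood at 50.8 and 53.3 in high libraries, 54.4 and 55.3 in low libraries and 57.5 and 56.7 in live libraries. Regions at protein-coding ends stood at 68.0 and 77.0, 81.0 and 82.1, and 81.8 and 82.0 in the same order, and regions away from gene ends between 40.6 and 43.9. Per library, lncRNA ends minus protein-coding ends averaged -24.0 percentile points and lncRNA ends minus regions away averaged 12.3 points. The sign was the same in 6 of 6 libraries for both, with p = 0.03125 in an exact sign-flip permutation test, the smallest that 6 libraries allow.

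How steadily these regions were open followed the same order. Of the 3706, 742 (20.0%) were among the best regions of all 6 libraries, against 15.8% of all regions, 48.6% of regions at protein-coding ends and 9.60% of those away from gene ends. Called in all 6 full lists were 993 (26.8%), against 21.7% of all regions. In 1 full list only stood 962 (26.0%), against 13.3% of regions at protein-coding ends and 36.3% of those away from gene ends. Among the best regions of at least 1 library were 1792 (48.4%), against 72.4% and 35.7% of those 2 classes. Between the low replicates, 1045 best lncRNA-end regions were shared, 87.7% of those of replicate 1 and 86.5% of those of replicate 2. Between the live replicates 1053 were shared, 85.1% and 86.0%, and between the high replicates 921, 79.6% and 77.8%. High replicate 2 shared more with the low libraries, 996 and 1003, and with the live libraries, 972 and 988, than with high replicate 1.

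The start of the gene was the more open end. Strand was known for 11145 of the 17795 autosomal lncRNA genes, which put 1838 of the regions at a gene start and 763 at the far end, with 1105 at genes whose strand was not known here. Among the regions at starts, 460 (25.0%) were in the best lists of all 6 libraries, against 95 (12.5%) of those at far ends and 187 (16.9%) where the end could not be told. Regions at starts reached a best list in 36.8% and 36.9% of cases in high libraries, 38.7% and 38.5% in low libraries and 39.4% and 39.2% in live libraries. At far ends these shares were 23.3% and 22.3%, 21.6% and 23.1%, and 24.1% and 23.5% in the same order, below every share at starts. The median percentile rank of called regions was 12.6 points higher at starts than at far ends (higher in 6 of 6 libraries, exact sign-flip permutation p = 0.03125). In high replicate 1 alone the medians were close, 51.2 at starts and 50.1 at far ends. The difference was 9.91 points (exact sign-flip p = 0.0625) when 267 regions near alternative starts of protein-coding genes were left out, a setting chosen after seeing the data, and 9.31 points (exact sign-flip p = 0.0625) when the window was 2500 bp. In both settings 5 of 6 libraries kept the direction and high replicate 1 did not, at -0.33 and -1.05 points. It was 14.9 points in the other 5 libraries, which cannot give a p below 0.0625 in the exact test.

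**Figure D2:**
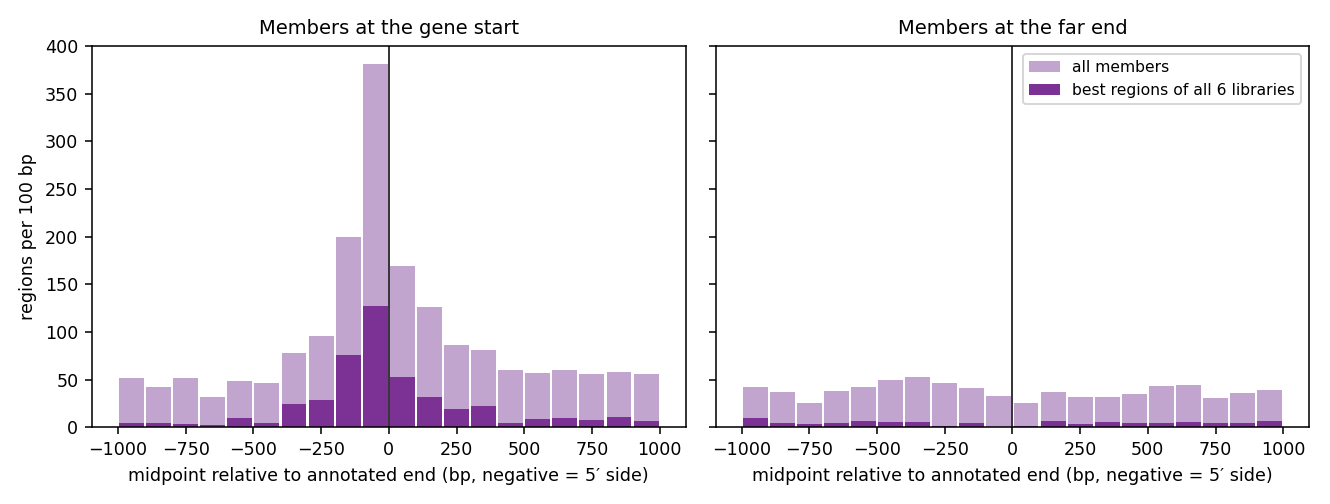
Number of regions per 100 bp by the distance of their midpoint from the annotated gene start (left) or far end (right), in bp, negative on the 5′ side along the gene's strand. Light bars count all regions at that end and dark bars those among the best regions of all 6 libraries. Regions pile up just before the start and show no peak at the far end.

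Position was sharper than the 1 kb window required. At starts the median midpoint lay 34 bp before the annotated base (median -34), and at the 460 starts open in all 6 libraries it lay at -48, with 56.3% of them within 250 bp before to 50 bp after the start. At the 95 far ends open in all 6 libraries 5.26% fell into the matching window. Over all regions the shares were 40.4% at starts and 13.8% at far ends. Within 100 bp of either end, 225 of 798 regions (28.2%) were among the best of all 6 libraries. The share was 25.5% at 100 to 250 bp, 17.6% at 250 to 500 bp, 13.5% at 500 to 750 bp and 13.6% at 750 to 1000 bp. Just inside the limit, at 900 to 1000 bp from a lncRNA end, 12.8% of 257 regions were open in all 6 libraries, and just outside it, at 1000 to 1100 bp, 9.05% of 232. The other limit left out 2460 regions that lay within 1 kb of both a lncRNA end and a protein-coding end, of which 58.0% were open in all 6 libraries.

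Nearness to a protein-coding start that is not a gene end also went with openness. The 267 regions within 1 kb of an alternative protein-coding start in the RefSeq promoter table were in all 6 best lists in 41.2% of cases, against 18.4% of the other 3439. Lying inside the body of a protein-coding gene, as 1294 regions did, went with a share of 20.3%, against 19.9% outside. Regions at the ends of more than 1 lncRNA gene numbered 154, of which 29.9% were open in all 6 libraries.

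The promoter windows of open lncRNA starts resembled those of protein-coding genes in part. In 296 lncRNA promoter windows that held a summit of all 6 libraries the median G and C content was 62.2% and the median CpG ratio 0.77, against 46.0% and 0.21 in 8210 lncRNA windows with no summit within 1 kb. In 5000 protein-coding windows with a summit of all 6 libraries they were 66.0% and 0.88. A CpG ratio of 0.6 or more was found in 61.8% of the open lncRNA windows, in 8.60% of those without a summit and in 93.0% of the open protein-coding windows. The remaining open lncRNA windows, MIR181A1HG among them, fell below that ratio.

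Motifs were searched as exact letters on both strands of the 33725 windows in the promoter table. The GC box GGGCGG was present in 53.4% of the open lncRNA windows, against 11.8% of lncRNA windows without a summit, 77.7% of open protein-coding windows and 45.0% of all windows. The ETS motif CCGGAAG was present in 17.9%, 2.67%, 26.4% and 10.3% of those sets, and the CCAAT box CCAAT in 44.9%, 36.3%, 46.8% and 34.4%. The AP-1 motif TGANTCA went the other way relative to protein-coding genes, at 15.9% of open lncRNA windows, 11.8% of those without a summit, 3.38% of open protein-coding windows and 7.67% of all windows. RUNX letters TGTGGT stood at 18.2%, 18.0%, 9.30% and 13.1%. TATAAA stood at 4.05%, 19.1%, 3.56% and 11.6%. The CTCF core AGGGGGC was found in 14.5%, 5.68%, 20.6% and 14.3%, PU.1 letters GAGGAAG in 17.2%, 11.7%, 13.7% and 13.6%, and CRE letters TGACGT in 13.5%, 4.74%, 14.1% and 7.85%. NRF1 letters GCATGCG, YY1 letters AAGATGG, the octamer ATGCAAAT and the NF-kB letters GGANTTTCC were each in under 10% of every set. The ETS and PU.1 letters share GGAAG, the CTCF core and the GC box can overlap, and shares of GC-rich motifs move with base composition, so a match is a description of the letters only.

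The next list was of genes that host snoRNAs. snoRNAs guide chemical changes on ribosomal and spliceosomal RNA, and their host transcripts are made in nearly all cells. Of 29 listed hosts with an end over 1 kb from protein-coding ends, 14 had a region there and 10 (34.5%) had one in the best lists of all 6 libraries, against 4.19% of all 17433 lncRNA genes with such an end and 6.19% of the 5524 without a LOC symbol. At 8 of the 10 that region lay at the start, and at SNHG15 and SNHG25 the end could not be told. Of the 18 listed hosts without a region in the set, 14, including GAS5 and SNHG1, had an open region at an end that also lay near a protein-coding end, 12 of them in all 6 best lists. The snoRNA host list was chosen with earlier results of these data known. The SNHG5 region, chr6:85678802-85678834, 85 bp from the start, ranked 376 and 254 in high libraries, 261 and 336 in low libraries and 2092 and 3460 in live libraries. SNHG8 (chr4:118278614-118278695, 108 bp from the start) ranked 312 and 617 in high, 444 and 1012 in low and 2652 and 3565 in live libraries. Both were ranked better in every sorted library than in either live library. SNHG29 had the same order, with 2513 and 2117 in high, 2372 and 2092 in low and 6407 and 2954 in live libraries. SNHG33 had the reverse order, with 12184 and 10727 in high, 8992 and 12625 in low and 6212 and 5049 in live libraries. DANCR, whose RNA is known for holding back differentiation and which also carries a snoRNA, lay at chr4:52712353-52712391, 22 bp from the start. It ranked 1003 and 382 in high libraries, 788 and 387 in low libraries and 320 and 628 in live libraries, with the groups overlapping. SNHG25 ranked 4896 and 3408 in high, 1899 and 1188 in low and 965 and 1244 in live libraries, with the high libraries behind the other 4 and low and live overlapping. SNHG17 was less steady: its region 43 bp from the start was not called in high replicate 1 and ranked 21543 in high replicate 2, 15309 and 10189 in low libraries and 16369 and 35190 in live libraries.

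Among regions in the best lists of all 6 libraries, 120 of 742 lncRNA-end regions (16.2%) ranked better in all sorted libraries than in both live ones, as SNHG5 and SNHG8 did, against 16.1% of all 14500 such regions. The reverse order held for 107 (14.4%), against 15.2%. Neither share stood away from the background.

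**Figure D3:**
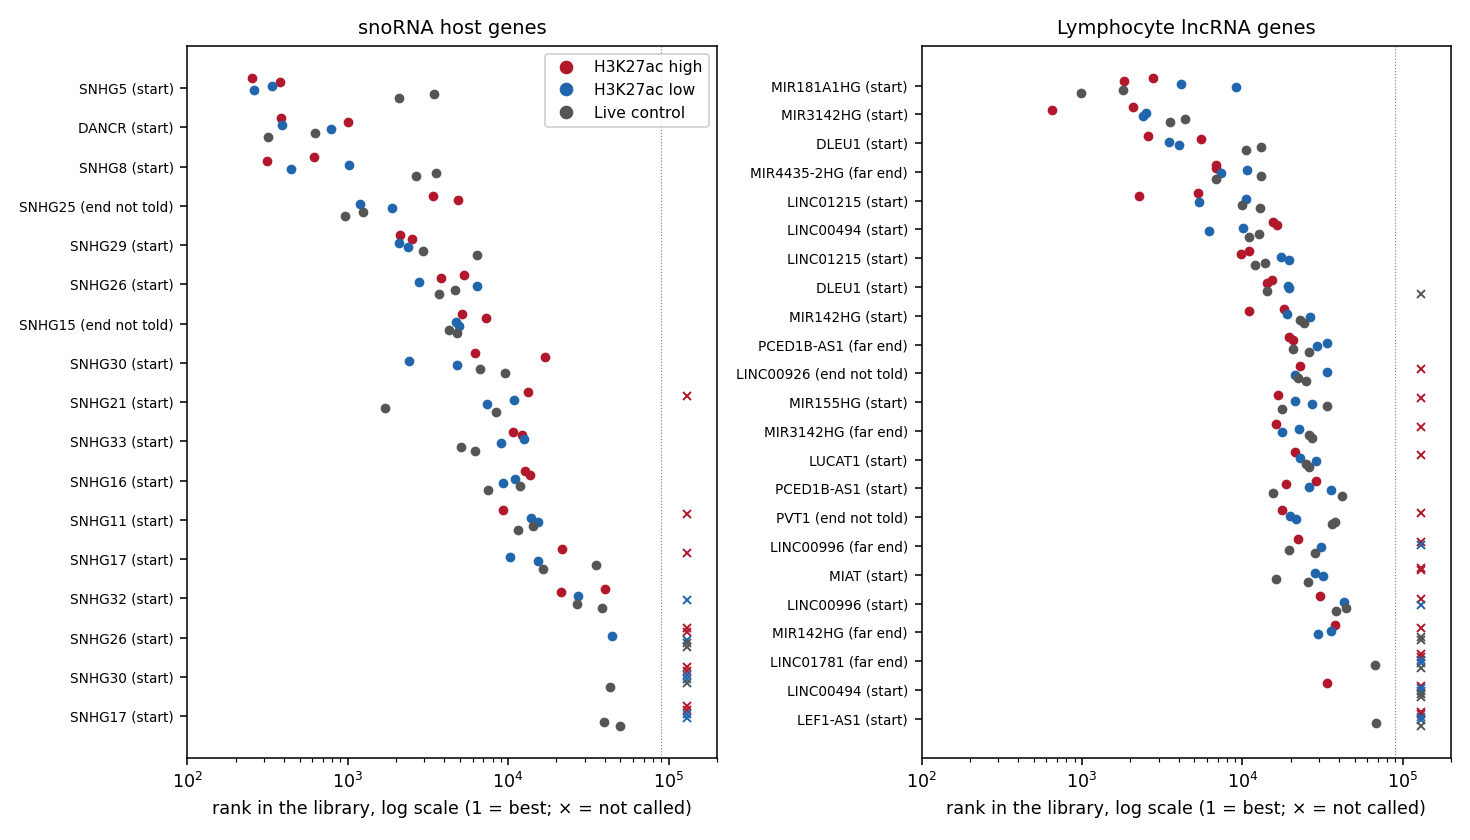
Rank of each region at the ends of snoRNA host genes (left) and of the listed lymphocyte lncRNA genes (right) in each library, on a log axis with better ranks to the left. Each row is 1 region with the gene and the end it lies at, each dot 1 library (H3K27ac high, H3K27ac low, Live control), and a cross marks a library whose list does not hold the region. SNHG5, SNHG8 and SNHG29 stand better in the 4 sorted than in the 2 live libraries, and SNHG33 stands better in the 2 live libraries. At DANCR and at the start of PCED1B-AS1 the 3 groups overlap.

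Of 82 listed microRNA host genes with an eligible end, 30 had a region and 9 (11.0%) had one open in all 6 libraries. That share was 4.19% over all lncRNA genes with such an end and 6.19% over those without a LOC symbol. This list was chosen with earlier results of these data known. Of the 53 listed hosts without a region in the set, 8 had an open region at an end also near a protein-coding end. Of these 8, 5 were in all 6 best lists. The MIR17HG start, chr13:91347535-91347769, ranked 2033 and 2851 in high libraries, 4477 and 7255 in low libraries and 7941 and 6883 in live libraries. Its cluster, the miR-17 to miR-92a cluster printed above, is known as a growth-promoting gene in B cell lymphoma. MIR181A1HG, host of microRNAs that act in lymphocyte development, lay at chr1:198937466-198937535 and ranked 1828 and 2774 in high, 9069 and 4165 in low and 991 and 1810 in live libraries. The low libraries placed it behind all others. The second copy of that pair, in MIR181A2HG, showed the same seed and ranked 4287 and 3457 in high, 9299 and 4599 in low and 2128 and 5344 in live libraries.

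Of the listed let-7 hosts, MIRLET7BHG had no region, and MIRLET7A1HG and MIRLET7IHG each had a region open in all 6 libraries. MIRLET7A1HG at chr9:94166021-94166120 ranked 1633 and 870 in high, 165 and 267 in low and 508 and 538 in live libraries, and MIRLET7IHG at chr12:62602844-62602915 ranked 1590 and 5119, 4286 and 3908, and 5185 and 4167 in the same order. A second region at the MIRLET7A1HG start was called in high replicate 1 only, at rank 3605. let-7 microRNAs are known to restrain growth genes. MIR3142HG, which spans miR-146a, a brake on NF-kB signalling, lay at chr5:160467836-160468089 and ranked 649 and 2085 in high, 2385 and 2510 in low and 3512 and 4401 in live libraries. MIR210HG, whose microRNA is induced in low oxygen, ranked 4103 and 3111, 3625 and 1357, and 7890 and 3925.

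Hosts known for B cell microRNAs were not all steady. MIR155HG, transcribed strongly in B cells carrying Epstein-Barr virus, had a broad region at chr21:25561754-25562319 that was not called in high replicate 1 and ranked 16641 in high replicate 2, 27195 and 21377 in low libraries and 17600 and 33745 in live libraries. The nearest summits of the 3 groups lay 142 to 272 bp from the region's midpoint. MIR142HG, a blood cell gene, ranked 10918 and 18295 in high, 26382 and 19084 in low and 24336 and 22837 in live libraries at its start.

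Of 22 listed lymphocyte lncRNA genes, 16 had a region and 6 (27.3%) had one open in all 6 libraries. It was 4.19% of all lncRNA genes with an eligible end and 6.19% of those without a LOC symbol. The list was chosen with earlier results of these data known. DLEU1, from the chromosome 13 segment lost in lymphocytic leukaemia, had 2 regions at its start. The nearer, chr13:50082080-50082096, ranked 5521 and 2595 in high, 4049 and 3480 in low and 10496 and 12996 in live libraries, better in every sorted library. LINC00494 ranked 16420 and 15618 in high, 6187 and 10017 in low and 10965 and 12654 in live libraries, with the low libraries ahead. LINC01215 had 2 regions, ranked 2269 and 5293 in high, 5386 and 10484 in low and 12952 and 9894 in live libraries at the region 529 bp from its start. LEF1-AS1 and LINC01781 were each called in 1 live library only.

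Of 9 listed general nuclear and cytosolic lncRNA genes with an eligible end, 6 had a region and 5 (55.6%) had one open in all 6 libraries. Against this stood 4.19% of all lncRNA genes and 6.19% of those without a LOC symbol. This list too was chosen with earlier results known. MALAT1, a nuclear speckle RNA, ranked 12086 and 7696 in high, 3152 and 3883 in low and 11011 and 14497 in live libraries at its start. Its low libraries stood ahead of the other 4. NORAD, which binds Pumilio proteins, ranked 6724 and 16138 in high, 17872 and 16232 in low and 7251 and 11816 in live libraries. CRNDE ranked 3030 and 2581 in high, 3778 and 1792 in low and 8336 and 5579 in live libraries. OIP5-AS1, LINC-PINT and TP53TG1 had no region in the set. LINC-PINT and TP53TG1 had an open region at an end that also lay near a protein-coding end, 1 of them in all 6 best lists. NEAT1, the scaffold of paraspeckles, was not called in high replicate 1 and ranked 30216 in high replicate 2, 18310 and 24192 in low libraries and 30992 and 47781 in live libraries.

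Of 24 listed imprinted and developmental lncRNA genes with an eligible end, 3 had a region and 1 (4.17%), KCNQ1OT1, was open in all 6 libraries, close to the 4.19% of all lncRNA genes. KCNQ1OT1, an imprinted antisense transcript within KCNQ1, ranked 11533 and 9394 in high, 10026 and 7142 in low and 7523 and 6275 in live libraries at chr11:2700087-2700187. H19, MEG3, HOTAIR and HOTTIP had no region. HOTAIRM1 and GATA6-AS1 had an open region at an end that also lay near a protein-coding end, 1 of them in all 6 best lists. HOXB-AS1 was called in both low and both live libraries and in neither high library, with ranks of 39147 and 27690 in low and 35910 and 23930 in live libraries.

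By the form of the gene name, the share open in all 6 libraries was 10 of 17 regions (58.8%) at snoRNA hosts, 51 of 185 (27.6%) at other named genes, 137 of 556 (24.6%) at LINC genes, 9 of 40 (22.5%) at microRNA hosts and 125 of 568 at antisense genes. It was 16 of 73 (21.9%) at divergent transcripts (symbols ending in -DT), 391 of 2247 (17.4%) at LOC genes, which have no other name, and 3 of 20 at intronic or overlapping genes. At genes with a name, 28.7% of regions at the start and 13.3% of those at the far end were open in all 6 libraries, and at LOC genes 22.1% and 11.9%.

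The 10 genes whose worst rank over the 6 libraries was best were LOC124901722, LOC100128966, SCOC-AS1, LOC105377308, SLC25A28-DT, LOC100132249, LOC107986997, LOC100630923, LOC124902736 and DANCR. The LOC124901722 region, chr7:108526245-108526274, ranked 13 and 24 in high, 2 and 91 in low and 362 and 325 in live libraries, and lay 124 bp from an alternative start of PNPLA8. The LOC100128966 region, chr5:138331928-138331971, ranked 236 and 155, 164 and 53, and 33 and 8, and lay 72 bp from an alternative start of the cell cycle gene CDC25C. The SCOC-AS1 and SLC25A28-DT regions also lay near alternative protein-coding starts, 6 and 184 bp away. No promoter window of a named gene was identical in letters to that of another gene in the table. How reads from near-identical copies were placed is not given in the sources used here.

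High and low libraries were next compared region by region. A region was called high-only when it was among the best 24326 of both high and of neither low library, and low-only in the opposite case. High-only were 37 of the 3706 lncRNA-end regions (0.998%), against 0.972% of all regions. Low-only were 66 (1.78%), against 1.33% of all regions, 2.18% of regions at protein-coding ends and 1.15% of those away from gene ends. Of the 37, 32 also appeared at a lower rank in a low library, and of the 66, 59 also appeared at a lower rank in high replicate 2. High replicate 1 could list none of the 66, since its whole list is its best list. Most thus differed in rank, with the region listed in at least 1 library of each fraction. The matching shares over all high-only and low-only regions were not taken. Only 2 high-only and 5 low-only regions lacked any summit from the opposite fraction within 1 kb.

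Among the 6 named high-only genes, CLLU1-AS1, an antisense gene at the chronic lymphocytic leukaemia locus CLLU1, lay at chr12:92432769-92432911 and ranked 13182 and 15468 in high, 26804 and 26991 in low and 24781 and 15235 in live libraries. LINC03108 ranked 11957 and 15621 in high, 31797 and 31118 in low and 30522 and 44026 in live libraries. The remaining 4 were FLJ46875, KANSL1-AS1, PARD6G-AS1 and PCED1B-AS1. FLJ46875 (chr2:156342550-156342551) ranked 3411 and 10167 in high libraries and was not called in the others, but a low summit lay 655 bp away. KANSL1-AS1 had a low summit 606 bp away, and its region lay 31 bp from an alternative start of KANSL1.

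The 6 named low-only genes were LINC02321, EP300-AS1, LINC01778, ARHGEF18-AS1, MIR193BHG and FUT8-AS1. LINC02321, chr14:90828227-90828257, 68 bp from the start, was not called in high replicate 1 and ranked 28562 in high replicate 2, 12179 and 10741 in low libraries and 4844 and 12188 in live libraries. EP300-AS1, antisense to the gene of the histone acetyltransferase that places H3K27ac, lay at chr22:41197449-41197641, 44 bp from its own start, and likewise had no call in high replicate 1, rank 33561 in high replicate 2, 15253 and 15788 in low libraries and 15655 and 11587 in live libraries. LINC01778 ranked 28553 in high replicate 2, 13672 and 11815 in low and 19153 and 22174 in live libraries. In all 6 the live libraries stood on the side of the low ones. High replicate 1, the library with the shortest list, called none of the 6. The definition fixes this, because its whole list is its best list. Without that library the counts were 120 high-only and 110 low-only regions, 3.24% and 2.97% of the set, against 2.92% and 2.16% of all regions.

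High libraries stood below low libraries at CpG-rich starts, in a split by CpG content that was chosen after seeing the data. Of the 1838 regions at a known start, 682 belonged to a promoter window with a CpG ratio of 0.6 or more. These reached the best list in 50.4% and 53.5% of cases in high libraries, 56.6% and 55.6% in low libraries and 55.7% and 55.3% in live libraries, the high libraries lying below the other 4. The 1156 regions with a lower ratio reached it in 28.7% and 27.2%, 28.1% and 28.4%, and 29.8% and 29.8% of cases, with high and low overlapping. With 2 libraries a group no exact permutation test of these shares could go below p = 0.333. At CpG-rich starts high replicate 2 (53.5%) lay closer to live replicate 2 (55.3%) than to high replicate 1 (50.4%). Regions at protein-coding ends made up 31.7% and 33.5% of the best lists in high libraries. In low libraries they made up 35.1% and 35.0%, and in live libraries 34.4% and 34.2%. For regions away from gene ends the high libraries had the largest shares. CpG-rich starts gave 5 high-only (0.733%) and 22 low-only regions (3.23%), and CpG-poor starts 11 (0.952%) and 19 (1.64%), against 0.972% high-only and 1.33% low-only of all regions.

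**Figure D4:**
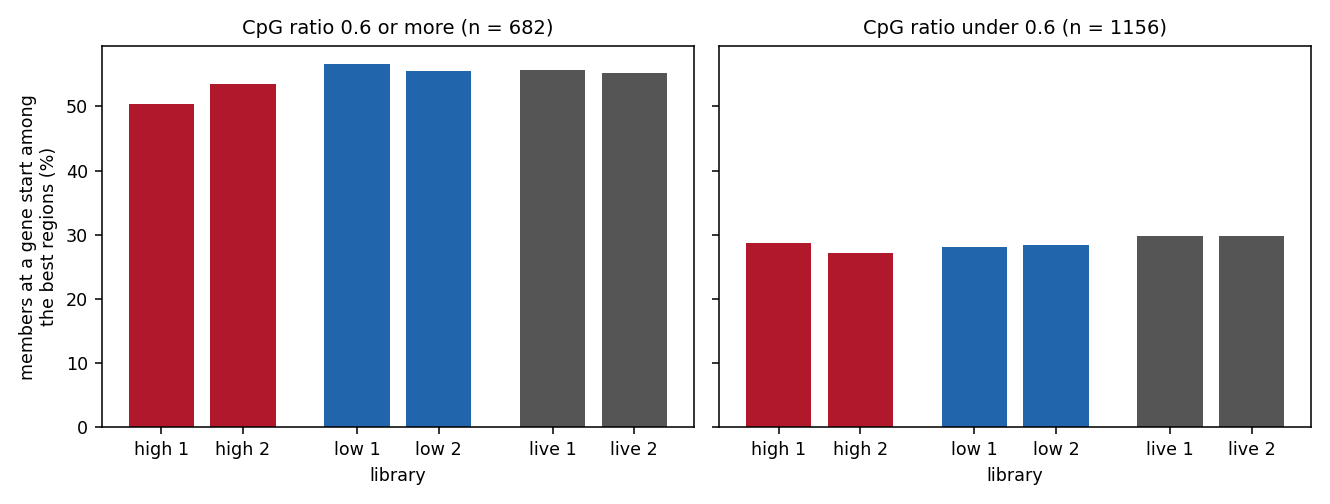
Share of regions at a lncRNA gene start that were among the best 24326 of each library, in percent, for promoter windows with a CpG ratio of 0.6 or more (left, n = 682) and under 0.6 (right, n = 1156). Each bar is 1 library, with H3K27ac high in red, H3K27ac low in blue and Live control in grey. High libraries stand lower than the others at CpG-rich starts (50.4% and 53.5%). At CpG-poor starts they (28.7% and 27.2%) overlap the low libraries (28.1% and 28.4%) and lie below both live libraries (29.8% and 29.8%).

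The order of ranks within the best lists showed the same split. Of 264 CpG-rich starts open in all 6 libraries, both high ranks were better than both low ranks at 41 (15.5%) and both low ranks were better at 108 (40.9%). Of 196 CpG-poor starts the counts were 55 (28.1%) and 25 (12.8%). Over all 742 lncRNA-end regions open in all 6 libraries the counts were nearly even, 175 (23.6%) and 179 (24.1%), as they were over all such regions, 24.7% and 24.5%. Regions at protein-coding ends gave 13.6% and 37.8%, and regions away from gene ends 35.1% and 12.4%. With high replicate 1 left out, a setting chosen after seeing the data, high replicate 2 was better than both low libraries at 29.2% of CpG-rich starts and behind both at 51.1%, and at CpG-poor starts the shares were 50.0% and 24.0%. Ranks within a list are relative, so a group of regions that ranks better pushes others down.

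**Figure D5:**
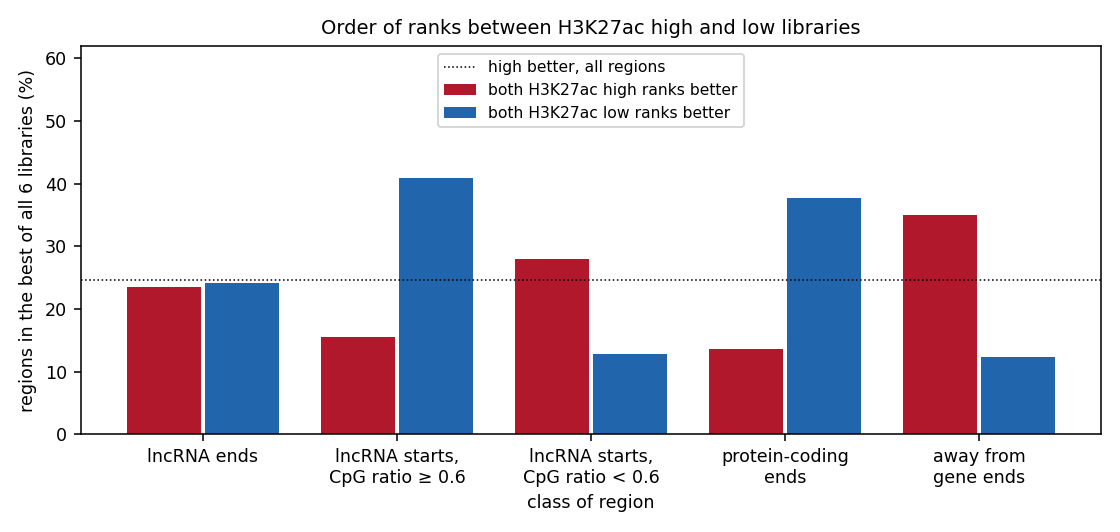
Percent of regions in the best lists of all 6 libraries at which both H3K27ac high ranks were better than both H3K27ac low ranks (red) or the reverse (blue), by class of region. The dotted line is the share with better high ranks over all 14500 such regions. CpG-rich lncRNA starts resemble protein-coding ends in this order, and CpG-poor lncRNA starts resemble regions away from gene ends.

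The libraries also differed on chromosome 19, which was singled out after its values were seen. There, 25.2% and 36.9% of the 111 lncRNA-end regions were among the best regions of the high libraries, against 45.9% and 53.2% in low and 41.4% and 42.3% in live libraries. All 2712 regions of that chromosome gave 28.0% and 33.4% in high, 39.7% and 42.0% in low and 39.2% and 37.5% in live libraries. The shift was thus seen over all regions of the chromosome and not at lncRNA ends alone. The part of CpG content, chromosome and list length in these differences was not tested.

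Sorted and live libraries were compared in the same way. Sorted-only, meaning among the best of all 4 sorted and of neither live library, were 24 of the 3706 regions (0.648%), against 0.576% of all regions. Live-only were 40 (1.08%), against 0.847%. Of the 24, 18 were called further down a live list, and of the 40, 36 further down a sorted list. High replicate 1 could call none of the 40, since its whole list is its best list. CFAP58-DT, a divergent transcript at chr10:104353656-104353694, 100 bp from its start and 158 bp from an alternative start of CFAP58, ranked 18363 and 12265 in high, 17273 and 20247 in low and 27386 and 25903 in live libraries. LINC02391 ranked 20578 and 19440 in high, 19193 and 17338 in low and 36589 and 29734 in live libraries, and BCL2L1-AS1 behaved alike with 39977 and 33783 in live libraries. These differences were in rank, with the summit present in both groups.

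At 3 of the 6 named sorted-only genes neither live library called the region, and the nearest live summit lay 608 to 804 bp away. Over all 24 sorted-only regions, 5 had such a live summit within 1 kb and 1 had none. Of the 24, 6 lay within 1 kb of an alternative protein-coding start. So did 3 of the 37 high-only, 11 of the 66 low-only and 0 of the 40 live-only regions. For comparison, so did 267 of all 3706 regions and 196 of the 1792 among the best of at least 1 library. The counts in the called groups are small. Leaving out regions near such starts, a setting chosen after seeing the data, gave 18 sorted-only regions (0.523%), against 0.576% of all regions. High-only were then 34 (0.989% against 0.972%), low-only 55 (1.60% against 1.33%) and live-only 40 (1.16% against 0.847%). ARRDC3-AS1 ranked 4557 and 11620 in high and 9364 and 6002 in low libraries and had its nearest live summit 756 bp away. CPNE8-AS1 had it 608 bp away. The ARRDC3-AS1 region lay 935 bp from an alternative start of ARRDC3, and the CPNE8-AS1 region 56 bp from one of CPNE8. FUT8-AS1 had 2 regions. The first, chr14:65412626-65412749, was called in all 4 sorted libraries with ranks of 5787 to 12821, and the nearest live summit lay 804 bp off. The second, chr14:65411835-65411920, was called in both live libraries with ranks of 10286 and 11286, in both low libraries and in high replicate 2. The first lay 43 bp and the second 14 bp from an alternative start of FUT8.

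Among live-only regions, LINC00173 (chr12:116533301-116533451, 46 bp from the start) was not called in high replicate 1 and ranked 42976 in high replicate 2, 30387 and 24656 in low and 15198 and 17346 in live libraries. ATP6V1B1-AS1, 24 bp from its start, was called in neither high library and ranked 27804 and 27782 in low and 16538 and 10584 in live libraries. MAP3K2-DT was called in live libraries alone, with ranks of 9317 and 10116, and its nearest sorted summits lay 650 and 675 bp away. LINC00896, SMANTIS and HCG21 completed the named set. CpG-rich starts held 10 sorted-only (1.47%) and 5 live-only (0.733%) regions and CpG-poor starts 5 (0.433%) and 16 (1.38%), against 0.576% sorted-only and 0.847% live-only of all regions. Crosslink reversal, sorting and list length all separate the sorted from the live libraries in this design. Fixation and antibody staining, described above for the sorted cells, are not settled by the labels for the live control cells. None of these can be told apart.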

How the data were processed

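Per the submitters' processing notes, bcl2fastq, FastQC, Bowtie2, Picard and MACS2 were used, without versions, and builds hg38 and hg19 are named; the lists are on hg38. No trimming, Tn5 shift, duplicate or caller setting was found in the labels. A deposited list held single-base summits of 1 library with the authors' score, taken to be a −log10 p-value or q-value (lowest 2.02), which was used only for ranks within a list. Read depth is unknown.

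Summits were chained with Python 3.11.15, pandas 2.3.3 and numpy 2.4.6, and intervals came from scipy 1.17.1. Ties in score were broken by a seeded draw. Gene ends, strand, promoters and microRNAs came from RefSeq tables for GRCh38.p14, with coordinates 1-based. The members and lists were chosen with earlier results of these data known. A region carries the name of the lncRNA gene with the nearest end. Named were the 10 with the best worst rank, up to 6 per one-sided call (LOC symbols last), and genes of the lists. LINC00461, EMX2OS and TUG1 are not annotated as lncRNA in the table. A listed B cell marker is not reported here. The split by CpG ratio was added after seeing the data. Libraries were compared by exact two-sided permutation tests and regions by counts beside all regions. Chaining, nearest-end and one-sided calls were tested on simulated lists. Files held no further sample columns, and no 2 lists were identical.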

Additional observations from a re-analysis of the deposited data

Results flagged for a closer look

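At other named lncRNA genes (185 regions whose symbols are not LOC, LINC, antisense, divergent or host names), high minus live and low minus live ran in opposite directions in every library. Of these regions 39.5% and 41.1% were among the best regions of the high libraries, 47.6% and 44.3% of the low libraries and 43.2% and 42.2% of the live libraries. Regions at protein-coding ends had the same order. They made up 31.7% and 33.5% of the best lists in high, 35.1% and 35.0% in low and 34.4% and 34.2% in live libraries. Over all lncRNA-end regions the live libraries stood highest, and among regions away from gene ends the high libraries did. At the 185 regions high minus low came to -5.68 percentage points. The difference was not tested: both contrasts share the live libraries, and 2 libraries against 2 cannot go below p = 0.333 in an exact permutation test.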

How the results depend on the processing

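All 4 differences in share changed sign when full lists of unequal length were used, and kept it in lists cut to the best 12163. In the full lists high minus low was 0.14 points, high minus live 0.39, low minus live 0.25 and sorted minus live 0.32, and with high replicate 1 left out and lists lengthened, a setting added after seeing the data, high minus low was 0.025, while high minus live (-0.125) and sorted minus live (-0.141) kept their sign. The cause was not tested. Leaving out 1 library gave -0.18 to -0.066, -0.31 to -0.20, -0.16 to -0.097 and -0.22 to -0.15 for the same 4 differences.

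Counts moved more. With high replicate 1 left out and lists lengthened, high-only, low-only, sorted-only, live-only and all-library counts were 225, 133, 48, 75 and 1259. The first 4 were 6.07%, 3.59%, 1.30% and 2.02% of the set, against 5.80%, 3.23%, 1.20% and 1.77% of all regions. Without LOC genes, which leaves fewer regions, the counts were 10, 34, 11, 18 and 361. The first 4 were 0.673%, 2.29%, 0.741% and 1.21% of 1485 regions, against 0.972%, 1.33%, 0.576% and 0.847% of all regions. In full lists the first 4 were 15, 118, 7 and 297. These were 0.405%, 3.18%, 0.189% and 8.01% of the set, against 0.358%, 3.06%, 0.0751% and 8.64% of all regions. A list cut to its best 12163 gave 24 high-only and 325 all-library regions. The 2500 bp window gave 70 high-only, and the 500 bp window 14 sorted-only and 25 live-only. The 24 were 0.648% of the set, against 0.648% of all regions, and the 70 were 1.17% of 5995, against 0.972%. The 14 and 25 were 0.541% and 0.966% of 2588, against 0.576% and 0.847% of all regions. Leaving out 1 library gave 67 to 184, 110 to 181, 27 to 52, 47 to 111 and 760 to 820.

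Mean percentile differences kept their sign in every setting run. Leaving out 1 library gave -25.4 to -23.4 against protein-coding ends, 12.03 to 12.9 against regions away and 11.3 to 14.9 for start minus far end, with an exact p of 0.0625, the smallest 5 libraries allow. The last was 9.31 with the 2500 bp window and 9.91 without alternative coding starts, each with 5 of 6 libraries higher at starts and an exact p of 0.0625. Samples with the same replicate number did not deviate together (correlations 0.050, -0.007 and 0.029), and the replicate block left the 3 differences at -0.12, -0.25 and -0.13 with an exact p of 0.5, the smallest 2 pairs allow. No paired analysis was possible for the counts because they come from no test. Unknown depth limits every absence from a list.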
